A study of Homo sapiens with 20 samples.

Results

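The guanylate-binding protein genes GBP1, GBP2, GBP3, GBP4 and GBP5 and the indoleamine 2,3-dioxygenase gene IDO1 were followed by their symbols, which gave 6 of the 36076 genes of the expression table, with 1 row each. In the files they carry the identifiers ENSG00000117228 (GBP1), ENSG00000162645 (GBP2), ENSG00000117226 (GBP3), ENSG00000162654 (GBP4), ENSG00000154451 (GBP5) and ENSG00000131203 (IDO1). On GRCh37 the 5 GBP genes lie in 1 cluster on the minus strand of chromosome 1, which also holds GBP7 between GBP2 and GBP4, with GBP3 at 89472362 to 89488577, GBP1 at 89517565 to 89531043, GBP2 at 89571815 to 89616139, GBP4 at 89646827 to 89664625 and GBP5 at 89721872 to 89738543. IDO1 lies on the plus strand of chromosome 8 at 39759794 to 39786309, upstream of its relative IDO2. The samples came from 6 established human lines of lung cancer, namely H1299, H1792, PC9, A549, CL1-0 and CL1-5, grown in RPMI-1640 with serum. DAC cells received 100 nM decitabine for 72 hours and then 3 days without drug, and Mock cells received phosphate-buffered saline. No label names an added cytokine in either group, so the levels are those of cells without supplied interferon gamma. There was 1 mRNA-seq library per line and treatment (12 libraries), and 8 Omni-ATAC-seq libraries, which map open chromatin, covered A549, H1299, CL1-5 and PC9. Each line is 1 culture of 1 tumour cell population, so a difference between Mock and DAC within a line has no replicate, and the lines serve as replicates across the series.

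Interferon gamma, a cytokine of T and NK cells, binds the IFNGR1 and IFNGR2 receptor chains and activates the kinases JAK1 and JAK2. The signal reaches promoters at GAS elements and induces the transcription factor IRF1, which binds interferon-stimulated response elements (ISRE). The same elements are bound after type I interferon by a complex that holds IRF9. The GBPs are large GTPases that coat intracellular bacteria, viruses and parasite vacuoles, and they are among the most strongly induced proteins of interferon gamma-treated cells. IDO1 is the enzyme that starts the breakdown of tryptophan to kynurenine, a route by which tumour and myeloid cells restrain T cells. DAC is a cytosine analog that is built into DNA and depletes DNA methyltransferases.

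Gene totals lay from 22234485 to 25303899 reads in each library of the 5 lines other than H1299. The H1299 libraries held 52634234 to 59735913, mostly in even numbers (81.9 to 85.5% of the genes with 1 to 20 reads, against 39.2 to 41.5% in the other lines). H1299 reads were therefore treated as pairs in the counting intervals. All levels are FPKM, reads scaled to gene length and library size, with the recovered reads behind them. Their 95% intervals (exact, from the reads) cover counting error only, and 3 reads or fewer count as not detected. In bulk cultures, a change in the number of cells that express a gene and a change in RNA per cell cannot be told apart. Reads that fit more than 1 of the closely related GBP genes may have been divided between them, and the annotated GBP2 and GBP7 genes overlap.

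The RefSeq promoter table (GRCh38.p14, 250 bases before to 50 after the start) held 3 of the 6 genes, GBP1, GBP3 and GBP4. Each has 1 ISRE core (GAAA repeated after a spacer of 2 bases, both strands searched, here read on the opposite strand), which 3.57% of the 35116 promoters in the table hold. They are shown because the motif lies at a different place in each, and in GBP3 it follows a GAS element (TTCNNNGAA, both strands searched, found in 7.66% of promoters). The stretches run from 150 bases before the start to 20 bases from it, on the minus strand, and capitals mark the ISRE cores and the GAS element.
GBP1 (chr1:89065189-89065358): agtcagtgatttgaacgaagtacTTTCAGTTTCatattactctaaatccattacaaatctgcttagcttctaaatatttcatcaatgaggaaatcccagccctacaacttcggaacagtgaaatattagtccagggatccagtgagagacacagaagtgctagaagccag
GBP3 (chr1:89022847-89023016): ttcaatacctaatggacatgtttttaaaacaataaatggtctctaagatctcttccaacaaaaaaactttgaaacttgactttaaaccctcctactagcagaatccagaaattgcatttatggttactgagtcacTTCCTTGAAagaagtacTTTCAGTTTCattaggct
GBP4 (chr1:89198923-89199092): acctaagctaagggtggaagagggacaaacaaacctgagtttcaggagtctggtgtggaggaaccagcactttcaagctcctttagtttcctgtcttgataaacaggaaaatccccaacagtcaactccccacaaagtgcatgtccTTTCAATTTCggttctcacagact
Counted from the start base as 0, the core begins at -127 in GBP1, at 2 in GBP3 and at -4 in GBP4, and the GAS element of GBP3 begins at -15. GBP1 and GBP3 share the same 10 letters. In the 300 bases of the table, GBP1 and GBP4 each hold 3 CpG dinucleotides and GBP3 holds 0, where the median promoter holds 14, and 24.5% of promoters hold 3 or fewer. The promoters of the neighbours GBP6 and GBP7 held neither motif. GBP2, GBP5 and IDO1 had no entry.

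GBP5, a prenylated GBP that acts at the Golgi and in inflammasome activation, was the member with the largest difference in the fit over lines, and its level was higher after DAC in 6 of 6 lines. It stood at 0.0458 FPKM (8 reads) in Mock A549 and 0.602 (124 reads) after DAC, a ratio of 13.1 (95% counting interval 6.46 to 31.1). In CL1-5 it went from 0.0816 to 1.08 FPKM (18 and 214 reads, ratio 13.3, 8.20 to 22.8), and in H1792 from 0.124 to 2.211 (25 and 432 reads, ratio 17.9, 11.9 to 27.9). These 3 lines had ratios whose intervals overlap and, like CL1-0 and PC9, were low in GBP5 mRNA in Mock. H1299 stood apart in level, since it already held 1.75 FPKM (816 reads) in Mock and reached 15.3 (6604 reads). Its ratio of 8.76 (7.90 to 9.73) had an interval that overlaps those of A549 and CL1-5. In CL1-0 the level went from 0.0832 to 0.270 (16 and 65 reads, ratio 3.24, 1.85 to 5.998). In PC9 it went from 0.0177 to 0.127 (3 and 24 reads, ratio 7.18, 2.18 to 37.3). These were the lines with the lowest GBP5 after DAC. Every counting interval of GBP5, in 6 of 6 lines, lay above a ratio of 1. Among Mock libraries H1299 was highest, and each line below it (H1792, CL1-0, CL1-5, A549, PC9) overlapped the next in its counting interval. After DAC no neighbours overlapped, in the order H1299, H1792, CL1-5, A549, CL1-0 and PC9.

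GBP4, the GBP whose gene lies next to GBP5, was at 1.35 FPKM (474 reads) in Mock H1299 and 6.33 (2050 reads) after DAC, a ratio of 4.68 (4.06 to 5.41). In CL1-5 it went from 0.337 to 1.33 (ratio 3.95, 2.92 to 5.41). These were the 2 lines in which GBP4 was at least 2-fold higher. Smaller values came from PC9 (0.204 and 0.381 FPKM, ratio 1.87, 1.15 to 3.10), A549 (0.419 and 0.626, ratio 1.49, 1.06 to 2.12) and H1792 (2.22 and 3.11, ratio 1.40, 1.22 to 1.62). In CL1-0 the level was lower after DAC, at 0.691 FPKM (100 reads) in Mock and 0.502 (91 reads) after it, a ratio of 0.726 (0.540 to 0.974). GBP4 was thus the member present in every library, from 0.204 to 6.33 FPKM, and the one with counting intervals on both sides of 1.

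GBP1, the family member that assembles on bacterial surfaces as a platform for caspase-4, had its highest level in H1792, at 6.65 FPKM in Mock and 10.8 after DAC (823 and 1298 reads, ratio 1.63, 1.49 to 1.78). In CL1-5 it went from 0.813 to 3.70 (110 and 449 reads, ratio 4.56, 3.69 to 5.66), which was the only line with GBP1 at least 2-fold higher on the log2(FPKM + 0.1) scale. A549 held 0.0561 and 0.206 FPKM (6 and 26 reads, ratio 3.67, 1.48 to 10.9). In PC9 (0.665 and 0.874) and H1299 (0.280 and 0.409) the counting interval included 1. CL1-0 held 1 read in Mock and 0 after DAC.

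GBP2 was also highest in H1792, at 12.7 FPKM in Mock and 29.9 after DAC (1971 and 4496 reads, ratio 2.36, 2.24 to 2.49). It was at 0.216 and 0.838 FPKM in A549 (29 and 133 reads, ratio 3.89, 2.58 to 6.02) and at 0.318 and 1.16 in H1299 (114 and 386 reads, ratio 3.66, 2.71 to 5.01). In CL1-5, where the other 5 members were at least 2-fold higher, GBP2 was at 0.0941 and 0.112 FPKM (16 and 17 reads), with an interval that included 1. PC9 held 0.997 and 1.356 FPKM (ratio 1.361, 1.09 to 1.71), and CL1-0 held 0 and 2 reads.

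GBP3, which has been linked to defence against influenza virus, was the most abundant family member in PC9, at 4.79 FPKM in Mock and 5.67 after DAC (428 and 564 reads, ratio 1.18, 1.04 to 1.35). It was at 7.99 and 17.6 FPKM in H1792 (852 and 1819 reads, ratio 2.207, 2.03 to 2.40), at 1.22 and 2.71 in CL1-5 (ratio 2.22, 1.81 to 2.74) and at 0.293 and 0.883 in A549 (ratio 3.01, 1.95 to 4.80). H1299 held 0.472 and 0.678 FPKM, a ratio of 1.44 with an interval of 1.01 to 2.06. CL1-0 held 1 read in each library. GBP1, GBP2 and GBP3 were therefore not detected in CL1-0 under either treatment, the line in which GBP4 and GBP5 were both measured.

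IDO1, which opens the tryptophan ring, was highest in H1792. It stood at 2.44 FPKM (197 reads) in Mock and 35.3 (2762 reads) after DAC in that line, a ratio of 14.5 (12.5 to 16.8), and 35.3 was the highest level of any member in any library. In CL1-5 it held 1 read (0.0113 FPKM) in Mock and 29 reads (0.366 FPKM) after DAC, with a ratio of 32.4 whose interval ran from 5.37 to 1322. In H1299 the reads went the other way, from 32 (0.172 FPKM) to 12 (0.0696 FPKM), but the interval of the ratio of 0.406 (0.130 to 1.09) included 1. A549 held 0 and 4 reads, PC9 0 and 1, and CL1-0 0 and 0. IDO1 was thus at or under 3 reads in 4 of 6 Mock libraries, and its level after DAC in H1792 was separated from the next line, CL1-5, by an interval without overlap. The paralog IDO2, which follows it on the chromosome, had 4 reads in Mock and 39 reads after DAC in H1792 (0.0363 and 0.366 FPKM) and at most 2 reads in each library of the other 5 lines.

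**Figure D1:**
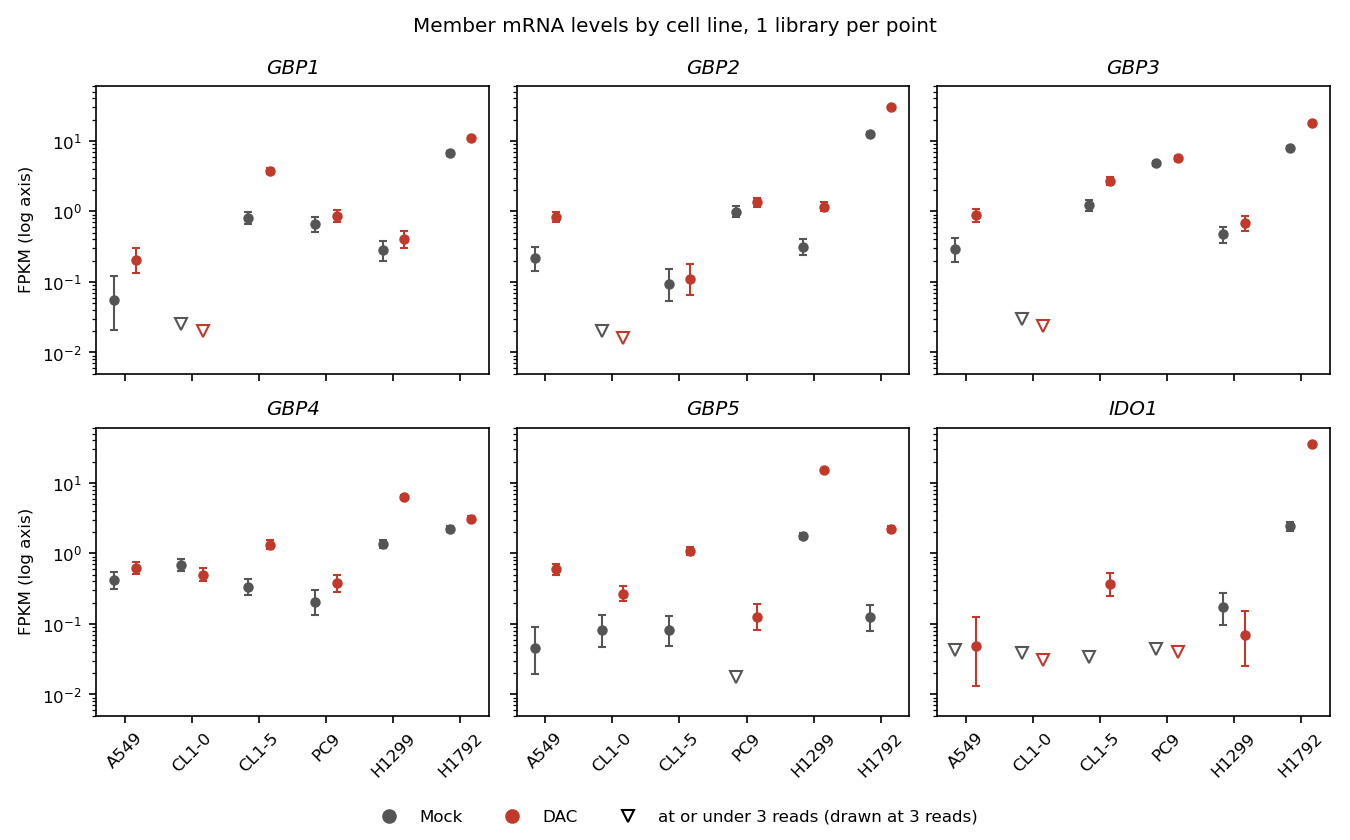
Levels of GBP1 to GBP5 and IDO1 in FPKM (log axis) by cell line, with Mock in grey and DAC in red, 1 library per point and 95% counting intervals as bars. Open triangles mark libraries at or under 3 reads, drawn at the level of 3 reads. GBP5 is higher after DAC in all 6 lines, GBP1 to GBP3 and IDO1 are at the floor in CL1-0, and IDO1 reaches 35.3 FPKM in H1792.

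Counted by line, on the scale of the log2 difference of FPKM + 0.1, the members at least 2-fold higher after DAC were 5 of 6 in CL1-5, 4 in H1792, 3 in A549, 3 in H1299, 1 in CL1-0 and 0 in PC9. Of 22814 genes with a mean of at least 0.1 FPKM, 7.23% in CL1-5, 11% in H1792, 15.5% in A549, 8.04% in H1299, 7.6% in CL1-0 and 10.3% in PC9 were past the same fold. On the same scale no member was at least 2-fold lower in any line. The share of all genes past that fold was 5.08% in CL1-5, 6.1% in H1792, 6.65% in A549, 3.12% in H1299, 2.11% in CL1-0 and 3.1% in PC9. The median difference of the 6 members was 1.88 in CL1-5, 1.18 in H1792, 1.15 in A549, 1.02 in H1299, 0.38 in PC9 and -0.01 in CL1-0, while the median of all genes lay between 0.00 and 0.08 in each line. These counts also differed with the scaling of the libraries. With a common FPKM sum (TPM), A549 and CL1-5 had 4 members each at least 2-fold higher and H1792 had 3. The counts depend on the pseudocount as well, because most members are low. With a pseudocount of 1, A549 and CL1-0 had 0 and CL1-5 had 1 member past 2-fold, and H1299 and H1792 still had 2 and 4. With 0.01, A549, CL1-0 and PC9 had 5, 2 and 2 members at least 2-fold higher, and IDO1 in H1299 was at -1.19. Without a pseudocount, GBP5 in PC9 had a ratio of 7.18 (2.18 to 37.3) and IDO1 in H1299 one of 0.406 (0.130 to 1.09).

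**Figure D2:**
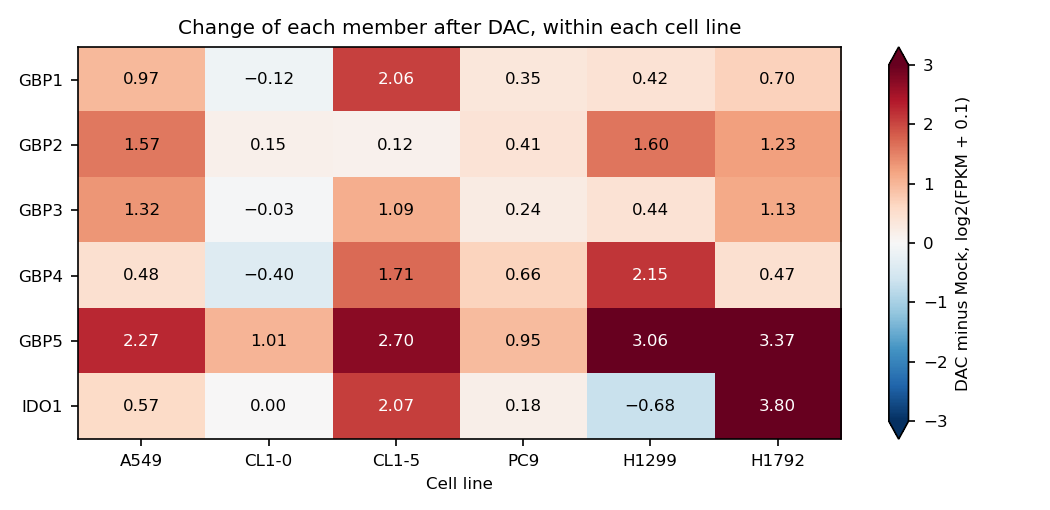
Difference between DAC and Mock of each member (rows) in each line (columns) on the log2(FPKM + 0.1) scale, written in each cell and colored from blue (lower) to red (higher). GBP5 is at 0.95 or more in every line, the row of IDO1 holds 3.803 in H1792 and -0.68 in H1299, and the CL1-0 column is near 0 for every member except GBP4 and GBP5.

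Over the 5 lines that the study compared (all but H1792), no member passed the threshold in limma's fit across all genes with the cell line as a block. The p-values measure the spread between these lines, each a single culture. Of 22603 genes tested, 27 were higher (0.119%) and 0 lower at an adjusted p of 0.05, and 1825 and 994 were higher and lower at an unadjusted p under 0.05. GBP5 had a log2 fold change of 1.998 ± 0.37 (SE, 5 lines, adjusted p = 0.153, limma), the 224th largest of the 22603. GBP4 had 0.92 ± 0.37 (adjusted p = 0.380), GBP2 0.77 ± 0.31 (adjusted p = 0.382), GBP1 0.74 ± 0.33 (adjusted p = 0.416) and GBP3 0.61 ± 0.25 (adjusted p = 0.379), all above the median of all genes at 0.07. Without CL1-5 the value of GBP1 was 0.41 (adjusted p = 0.530), and with a pseudocount of 1 that of GBP5 was 0.90 (adjusted p = 0.451). IDO1 had a mean under 0.1 FPKM in these lines and was not tested there, and with H1792 added it had 0.99 ± 0.55 (adjusted p = 0.513, limma). GBP5 was called by limma-voom on the recovered reads (log2 fold change 3.15, adjusted p = 0.00264), and was not called with H1792 added (2.23, adjusted p = 0.0673) or in any other setting. Its adjusted p ranged from 0.00264 to 1.00 over the 15 alternatives. Voom weighs each value by its reads and adds a fraction of a read in place of 0.1 FPKM. It also scales by the total reads of each library in place of the scaling behind FPKM. The H1299 reads entered voom unhalved, not as pairs, and the effect of this on the GBP5 call was not tested. The median of all genes was 0.17 with voom, which called 199 genes higher and 0 lower.

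Over the 12 libraries, as a description, some members varied together. The correlation of log2 levels was 0.91 between GBP1 and GBP3, 0.82 between GBP2 and GBP3 and 0.76 between GBP1 and GBP2, and it was 0.84 between GBP4 and GBP5, and 0.07 between GBP3 and GBP5. The points are 2 libraries from each of 6 lines. Without H1792 the value for GBP4 and GBP5 was 0.96, that for GBP1 and GBP3 was 0.85 and that for GBP1 and GBP2 0.35. IDO1 had 0.81 with GBP1 and with GBP2 over 12 libraries, and 0.62 and 0.01 over the 10 without H1792, so its likeness to GBP2 rested on that line. Among 12284 genes with a mean of at least 1 FPKM, the genes most like GBP3 were TNFAIP3, the A20 brake on NF-kB (0.97, and 0.97 without H1792), AMPD3 (0.97) and QSOX1 (0.95). GBP1 was most like CSF2, the gene of the cytokine GM-CSF (0.94), CLMP (0.94) and TNIP1, a partner of A20 (0.92). GBP4 was most like LINC01252 (0.93), RAP1B (0.93) and NFKB2, an NF-kB subunit (0.92). GBP5 was most like LINC01252 (0.95), MRGPRX3 (0.92) and LINC01554 (0.91). The genes nearest to GBP2 were PDIA3 (0.96), SLC39A8 (0.96) and TMOD1 (0.95), and those nearest to IDO1 were XXYLT1-AS2 (0.96), ARFRP1 (0.96) and LINC01411 (0.95), which dropped to 0.69, 0.56 and 0.48 without H1792.

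The 2 remaining GBP genes of the cluster were scarcely measured. GBP6 reached at most 0.545 FPKM (86 reads, H1299 after DAC) and had 0.27 ± 0.24 in the 5-line fit (SE, adjusted p = 0.641, limma). GBP7 did not pass the filter and held at most 10 reads, in H1299 after DAC.

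The ligands were examined next. IFNG was not analysed here. IFNB1, a type I interferon gene, held at most 2 reads in each library, and IFNK at most 3. The type III interferon IFNL1 held 3 and 44 reads in CL1-5, 0 and 28 in H1299, 17 and 33 in CL1-0, 0 and 6 in A549 and 0 in PC9 and H1792. IFNL2 (3 and 44 reads) and IFNL3 (4 and 59 reads), which are nearly identical copies and may share reads, were above 3 reads only in CL1-5, and IFNE reached its highest level in H1792 after DAC, at 8 reads in Mock and 29 after it. CL1-5 was thus the line with the most interferon lambda mRNA after DAC, and H1792 held none of it. In limma's 5-line fit IFNL1 had 1.72 ± 0.50 (adjusted p = 0.286), IFNL2 1.00 ± 0.50 (adjusted p = 0.447), IFNL3 0.93 ± 0.52 (adjusted p = 0.483) and IFNE -0.02 ± 0.25 (adjusted p = 0.974), with 0 of 4 called.

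Receptors and kinases were present in every library. Of 9 tested, 7 were higher and 2 lower with 0 called by limma or by voom (1 higher at an unadjusted p under 0.05 in voom and 0 in limma without weights), and their median log2 fold change was 0.14 beside 0.07 for all genes. IFNGR1 lay between 6.99 and 16.98 FPKM in Mock and between 7.29 and 26.1 after DAC, and its fitted value was 0.07 ± 0.10 (adjusted p = 0.771). IFNGR2 had 0.21 ± 0.14 (adjusted p = 0.560), JAK1 0.14 ± 0.13 (adjusted p = 0.631) and JAK2 0.22 ± 0.19 (adjusted p = 0.624). IFNAR1 (0.10), IFNAR2 (-0.13), IFNLR1 (0.30), IL10RB (-0.11) and TYK2 (0.21) had the remaining values. The highest median of this list within a line was 0.41 in H1792, where IFNGR1 went from 16.02 to 26.1 FPKM and IFNGR2 from 24.4 to 38.9.

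Among 13 signal transducers and regulators, 12 were higher and 1 lower over the 5 lines, 4 higher at an unadjusted p under 0.05 and 0 called by limma or by voom, with a median of 0.51. IRF1, a transcription factor that acts on GBP and IDO1 promoters, had 1.05 ± 0.27 (adjusted p = 0.254). Its level went from 7.92 to 33.4 FPKM in H1299, from 2.75 to 7.498 in CL1-5, from 1.09 to 2.45 in PC9, from 5.28 to 9.90 in H1792, from 2.27 to 3.36 in A549 and from 1.27 to 1.39 in CL1-0. H1299, the line with the highest GBP4 and GBP5 after DAC, thus also had the highest IRF1. H1792, with the highest IDO1, GBP1, GBP2 and GBP3, had an IRF1 difference of 0.89 on the log2(FPKM + 0.1) scale.

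The remaining transducers had IRF7 at 1.42 ± 0.37 (adjusted p = 0.256), the inhibitor SOCS1 at 0.84 ± 0.25 (adjusted p = 0.288), STAT2 at 0.52, STAT3 at 0.51, IRF9 at 0.50, IRF8 at 0.22, SOCS3 at 0.26, IRF2 at 0.11, PIAS1 at 0.15, PTPN2 at -0.04 and the deconjugase USP18 at 0.63. SOCS1, the feedback inhibitor of JAK kinases, went from 1.02 to 3.84 FPKM in H1792 (31 and 113 reads). IRF9, the DNA-binding part of the type I complex, was listed at 0 in both H1299 libraries. These are also the libraries with mostly even read numbers, and whether that 0 reflects absent mRNA was not tested. A part of IRF9 in the member levels was not tested either.

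The 35 typical targets of interferon gamma outside the members were mostly higher without being called. Of 31 tested, 29 were higher and 2 lower, with 0 called by limma, 14 higher and 1 lower at an unadjusted p under 0.05, and a median of 0.68. Voom called 3 of them higher (APOL1, BATF2 and ICAM1), and ICAM1 was also called with H1792 added and over genes with a mean of at least 1 FPKM. ICAM1, an adhesion molecule, had the largest value, 3.04 ± 0.41 (adjusted p = 0.0719), and the tRNA synthetase gene WARS the smallest, -0.54 ± 0.18 (adjusted p = 0.319). The within-line medians were 1.46 in CL1-5, 0.53 in H1792, 0.51 in H1299, 0.45 in A549, 0.29 in PC9 and 0.07 in CL1-0. The other largest values were those of ETV7 (2.48, adjusted p = 0.154), CD74, the class II invariant chain gene (2.39, adjusted p = 0.181), and the chemokine gene CXCL11 (2.03, adjusted p = 0.282, limma). The related gene CXCL9 held at most 4 reads in each library. CXCL10 held 0 reads in each Mock library and 215 reads after DAC in CL1-5, 25 in H1299 and at most 1 elsewhere (1.89 ± 0.88, adjusted p = 0.427). CIITA, the class II transactivator, was under 0.1 FPKM in the 5 lines and went from 1.02 to 0.552 FPKM in H1792, where the class II gene HLA-DRA went from 6.68 to 2.34 FPKM. The checkpoint ligand gene CD274 had 0.43 ± 0.29 (adjusted p = 0.547) and was at 21.7 and 16.97 FPKM in CL1-5, its highest line.

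The members were next set beside other programmes. The 34 typical targets of type I interferon were all higher in the 5-line fit, with a median of 1.32 and 1 called by limma, BST2 (tetherin) at 4.57 ± 0.44 (adjusted p = 0.0255), which voom called with 6 others (IFI27, IFIT3, MX1, MX2, OAS2 and RSAD2). BST2 was not called without the block, the filter or the trend, with a pseudocount of 1 or after quantile normalization. It was also not called when A549, CL1-0, CL1-5 or PC9 was left out, and was called in the remaining settings. Second in size among these targets was IFI27 at 3.51 (adjusted p = 0.175), and STAT2 was lowest at 0.52. Their within-line median was 2.83 in CL1-5 and 2.59 in A549, and it was 0.54 in H1299, 0.41 in PC9, 0.20 in H1792 and 0.06 in CL1-0. The 14 NF-kB feedback targets had a median of 0.67 over the 5 lines (13 higher, 1 lower, 7 higher at an unadjusted p under 0.05, 0 called by limma or voom). The largest was the chemokine gene CCL20 at 1.98 ± 0.62 (adjusted p = 0.302) and the lowest CXCL2 at -0.29 ± 0.40 (adjusted p = 0.772). Within lines their median was highest in H1792, at 1.63, followed by 1.12 in PC9, 0.80 in H1299, 0.77 in A549, 0.69 in CL1-5 and 0.19 in CL1-0. In H1792, 11 of 14 NF-kB feedback targets and 7 of 34 type I targets were at least 2-fold higher, against 5 of 14 and 32 of 34 in CL1-5. The cytokine gene CXCL8 went from 222 to 1040 FPKM and TNFAIP3 from 8.24 to 35.4 in H1792. CL1-5, with 5 members at least 2-fold higher, had the highest type I median, and H1792, with 4, had the highest NF-kB median. PC9, with 0 members past 2-fold on the log2(FPKM + 0.1) scale and 2 with a pseudocount of 0.01, had the next highest NF-kB median. A549, with 3, had the next highest type I median. CL1-0 had the lowest median of members and of both lists. Whether either programme has a part in the member levels was not tested.

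**Figure D3:**
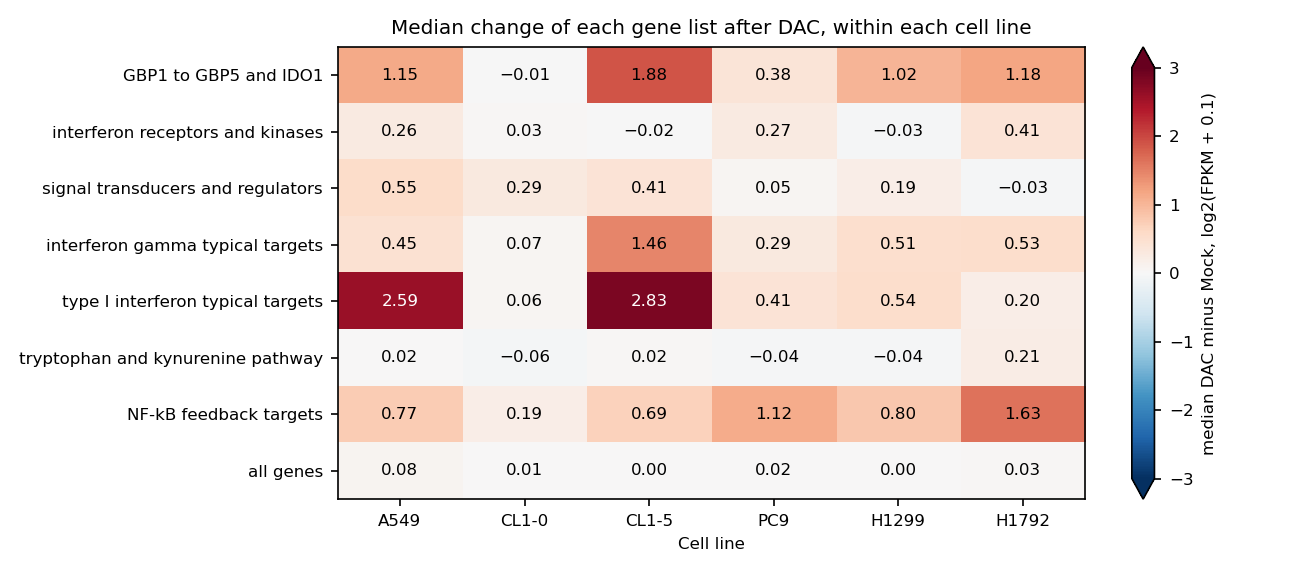
Median difference between DAC and Mock on the log2(FPKM + 0.1) scale for the 6 members, 6 gene lists and all genes (rows) in each of the 6 lines (columns). The type I row is at 2.59 in A549 and 2.83 in CL1-5 and at 0.20 in H1792, where the NF-kB row has its highest value of 1.63 and the members have 1.18.

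The genes of tryptophan uptake, use and breakdown and of the kynurenine receptor had a median of 0.08 over the 5 lines. Of 15 tested, 8 were higher and 7 lower, 1 each way at an unadjusted p under 0.05, and 0 were called by limma or voom. The largest value was that of QPRT, an enzyme of NAD synthesis, at 1.60 ± 0.54 (adjusted p = 0.326), and the smallest that of WARS, which charges tRNA with tryptophan and was at 65.2 and 27.0 FPKM in H1299. TDO2, the other enzyme that opens tryptophan, reached at most 1.48 FPKM (H1792 after DAC) and had 0.10 ± 0.22 (adjusted p = 0.863). KYNU, the kynureninase gene, had 0.18 ± 0.28 (adjusted p = 0.796) and was highest in A549, at 22.1 and 17.8 FPKM, a line without IDO1 reads in Mock. In H1792 KYNU was at 12.2 and 16.8 FPKM. The kynurenine receptor gene AHR (0.09 ± 0.17, adjusted p = 0.835) was at 10.2 and 13.7 FPKM there, its highest line. Of the AHR targets, CYP1B1 was lower after DAC in H1792 (23.1 and 11.6 FPKM) and PC9 (20.9 and 6.65) and higher in the other 4 lines (0.59 ± 0.47 over the 5 lines, adjusted p = 0.599), and CYP1A1 stayed at or under 1.37 FPKM (0.62 ± 0.34, adjusted p = 0.478). The 14.5-fold ratio of IDO1 in H1792 thus stood beside AHR targets that lay on both sides of 1, with CYP1A1 at 0.106 and 0.279 FPKM.

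Markers of other cell types were measured in the same libraries. The summed level of the 14 leukocyte markers was 1.23 to 5.92 FPKM in Mock and 2.03 to 10.3 after DAC, and the highest share in A549 was CD14, at 4.23 and 7.38 FPKM. Of 9 tested, 9 were higher with 0 called by limma or by voom (5 higher at an unadjusted p under 0.05, median 0.63). The defining genes PTPRC and CD3E held at most 18 and 2 reads in each library. Fibroblast and endothelial markers (9 with a row, summed level 0.331 to 104 FPKM in Mock and 3.22 to 158 after DAC) were highest in H1792, where COL1A1 was at 68.6 and 74.9 FPKM. Of 6 tested, 6 were higher with 0 called by limma and 1, VWF, by voom (4 higher at an unadjusted p under 0.05, median 1.10). The part of these genes in the member levels was not tested. Of 7 epithelial and carcinoma markers, 6 were higher and 1 lower with 0 called by either fit (median 0.56). CL1-0, labelled a lung adenocarcinoma line, was near zero for keratins in Mock, with KRT8 at 0.154 and KRT18 at 0.118 FPKM and KRT7 at 0 reads.

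Accessible chromatin was read from the peaks called in each Omni-ATAC-seq library. For 4 libraries the labels and the names of the deposited files disagree, since those labelled CL1-5 are named PC9 in the files and the reverse. Of 143 genes with at least 5 FPKM in Mock PC9 and at most 0.1 in Mock CL1-5, a peak lay at the promoter of 92.3% in Mock cells labelled CL1-5 and of 51.7% in those labelled PC9. For 80 genes with the reverse pattern the shares were 62.5% (labelled CL1-5) and 87.5% (labelled PC9). The mRNA of the lines thus goes against these labels and with the file names, so what follows for a library labelled CL1-5 would, by its file name, belong to PC9, and the reverse. Members were counted as having a promoter peak within 3000 bp of a coding transcript start.

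GBP5 had such a peak in 8 of 8 libraries, the only member to do so. Over 15502 genes with a mean of at least 0.1 FPKM that the lists name, 64.6% had a promoter peak in 8 of 8. For these genes the gene name and distance that the lists give each peak were used, not coding transcript starts. In Mock A549 the GBP5 peak covered the start (chr1:89738425-89738671, fold enrichment 3.72), where its mRNA was at 0.0458 FPKM. Each peak is given with its fold enrichment and its percentile among the promoter peaks of its own library. In A549 these were 3.72 (20.8) in Mock and 4.49 (42.2) after DAC, and in H1299 3.04 (14.4) and 3.21 (32.2). In the libraries labelled PC9 they were 3.69 (27.1) and 4.79 (57.9). In the libraries labelled CL1-5 they were 6.03 (71.9) in Mock and 3.50 (40.0) after DAC. The Mock peak (chr1:89740182-89740503) lay at -1639 bp from the start. The longer peak after DAC (chr1:89738797-89740369) began at -254 bp and overlapped the Mock peak in part. Promoter peaks were more numerous in each DAC list, for example 20230 against 18055 in A549, so the percentiles describe a peak within its own list and no difference between Mock and DAC was read from them. With peaks of a q-value under 0.01 alone, GBP5 had a promoter peak in 3 of 4 Mock and 3 of 4 DAC libraries, and no member had one in H1299 under either treatment. With a window of 1000 bp, GBP5 had a promoter peak in 3 of 4 Mock and 4 of 4 DAC libraries.

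The other members had promoter peaks in fewer libraries. GBP2 had one in 5 of 8, which covered the start in both libraries labelled CL1-5 (percentiles 36.3 and 54.7). In A549 its peak lay upstream instead, at -1593 bp in Mock and -1147 bp after DAC (percentiles 32.3 and 58.7), and in the DAC library labelled PC9 at -1377 bp. GBP3 had one in 3 libraries, in Mock H1299 (percentile 14.5) and in both labelled CL1-5 (50.3 and 60.5). GBP4 had one in 3, 59 to 93 bp downstream of the start, in Mock A549 (8.84), Mock labelled PC9 (10.2) and DAC labelled CL1-5 (51.1). GBP1 had one in the DAC library labelled CL1-5 alone (22.9), which covered the start. No peak lay over IDO1 or within 3000 bp of its starts in any of the 8 libraries, which hold 2579 to 5278 peaks each on chromosome 8, and H1792 was not among these lines.

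Between 1 and 5 of the 6 members had a promoter peak in a library. Of the 15502 genes, 76.3 to 83.3% had one by the gene name and distance that the lists give each peak. That rule differs from the one used for the members, so the shares are only roughly comparable. In the libraries labelled CL1-5 the number was 3 in Mock and 5 after DAC, in those labelled PC9 it was 2 and 2, in A549 3 and 2, and in H1299 2 and 1. The mean difference was 0.00 ± 1.41 members (SD, 4 lines). Each DAC list was longer than its Mock list (63541 against 45354 peaks in H1299). With equal numbers of peaks per pair of lists the mean difference was -0.25 ± 0.957 members (SD, 4 lines). In H1299, GBP4 had no promoter peak in either library, and the GBP5 peaks were at percentiles 14.4 in Mock and 32.2 after DAC of their own lists. With peaks of a q-value under 0.01 alone, no member had a promoter peak in H1299. Whether accessibility changed with the H1299 mRNA ratios of GBP4 and GBP5 (4.68 and 8.76) was not tested.

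**Figure D4:**
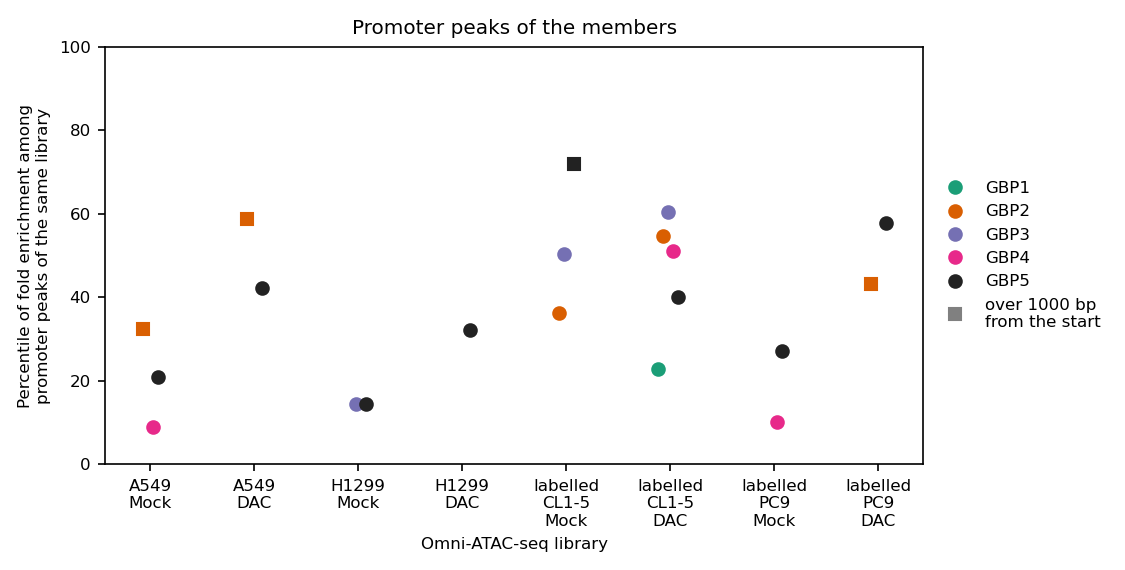
Percentile of fold enrichment of each promoter peak of the members among all promoter peaks of its own Omni-ATAC-seq library, for 8 libraries from left to right, with 1 color per gene and squares for peaks over 1000 bp from the start. GBP5 (black) appears in every library, at 14.4 to 71.9, and IDO1 in none. The libraries labelled CL1-5 and PC9 are shown by label.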

How the data were processed

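For mRNA-seq, per the study's methods, the authors trimmed reads, used RSEM and bowtie2 for alignment to hg19 (the submitters' processing notes also name TopHat2 2.1.1), counted them per gene on a GENCODE annotation, and deposited FPKM computed with DESeq2 1.24.0, 1 column per library. The same table holds the authors' mean normalized signal per gene, used here only to recover reads, and columns of their own comparison (fold change, error, test value and p-values), which were not used. For Omni-ATAC-seq the authors aligned reads with BWA 0.7.17-r1188, dropped duplicates, used MACS2 2.2.5 for broad peaks in single libraries and annotated them with ChIPseeker 1.20.0. For each peak the deposited lists give a fold enrichment ratio, −log10 values of p and q, and a score derived from q, which was not used in any result. The read depth of single Omni-ATAC-seq libraries was not used here.

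FPKM and the mean signal gave the reads behind each value, and 100% of values were whole within 0.05 reads. Log2(FPKM + 0.1) of genes with a mean of at least 0.1 FPKM was fitted with limma 3.58.1 (R 4.3.3), blocked by cell line and with a mean-variance trend, and p-values were Benjamini-Hochberg adjusted over all genes tested. The block pairs Mock and DAC of the same cell line, as labelled. Deviations of the 2 libraries of a line had correlations from 0.70 to 0.90, and libraries of different lines reached 0.16. Within a line there is 1 library per treatment and no test: intervals at 95% are exact Clopper-Pearson (ratios) and Poisson (levels) and cover counting error only. H1299 reads were counted as pairs there. The fit was checked on simulated data. The number of value columns without a sample was 0.

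The 6 genes and the 11 gene lists were chosen with earlier results of these data known. The genes named are the members, GBP6 and GBP7, the interferon genes, receptors, kinases and transducers (1 gene of these lists is not reported here), and in each other list the called genes or the highest and lowest, with a few role genes. For each member the 3 genes most correlated with it are also named. CXCL8, CXCL9, CXCL11, ETV7, CD74, TNFAIP3, HLA-DRA, APOL1, BATF2, IFI27, COL1A1, VWF, CD14, PTPRC, CD3E and the keratins were named after their values were seen, as were the genes voom called. Promoter sequences come from RefSeq (GRCh38.p14). Peak coordinates are those of the files (hg19), and gene positions are from GENCODE on GRCh37. Alternatives were H1792 added, no block, other pseudocounts (1 and 0.01), other filters (none, or a mean of at least 1 FPKM), a common FPKM sum (TPM), quantile normalization, no trend, limma-voom on recovered reads, each line left out, and for peaks a q-value under 0.01, a 1000 bp window, equal peak numbers and exchanged labels. Figures were drawn with matplotlib 3.10.9 in Python 3.11.15.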

Additional observations from a re-analysis of the deposited data

Results flagged for a closer look

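Levels and changes of the 6 genes over 6 lines were screened in 18 groups. A line was flagged where its gap to its nearest neighbour, over the range, exceeds Dixon's 95% critical value for 6 values. For independent, normally distributed values chance flags about 1 in 20 groups. That rate is only a rough guide here, because the groups share lines and genes and IDO1 was at or under 3 reads in several libraries. In 3 groups a line stood apart. GBP5 in Mock H1299 was at 0.89 on the log2(FPKM + 0.1) scale, against -2.16 in the next line, H1792. IDO1 in H1792 was at 1.34 in Mock, against -1.88 in H1299, and at 5.15 after DAC, against -1.10 in CL1-5. GBP4 differed in direction between lines, at -0.40 in CL1-0 and from 0.47 to 2.15 in the other 5 lines, each with a counting interval on its own side of 1. With 1 library per line and treatment, that difference between lines was not tested.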

How the results depend on the processing

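Among the fitted values of the members, 72 of 73 alternative values kept their direction and their side of the threshold, and the exception was GBP5, called with limma-voom (3.15). Sizes moved by over 1.5 times with a pseudocount of 1 (GBP1 0.37, GBP2 0.32, GBP3 0.33, GBP4 0.53, GBP5 0.90), with voom (GBP1 1.15, GBP2 1.39, GBP4 1.52, GBP5 3.15), after quantile normalization (GBP1 0.40, GBP2 0.47) and without CL1-5 (GBP1 0.41). With the block by cell line removed, the adjusted p of each tested member was 1.00, and 10 genes were higher in place of 27. The number of genes higher was 53 with H1792 added, 0 with a pseudocount of 1, 2 without a filter, 17 after quantile normalization, 6 without the trend and 199 with voom. Leaving out a line gave 0 (A549 or CL1-5) to 22 (H1299) genes higher, with 5 without CL1-0 and 12 without PC9, and 0 to 1 lower, the 1 without H1299. The tryptophan and kynurenine median of 0.08 was -0.0444 with a pseudocount of 1, -0.0408 over genes of at least 1 FPKM, -0.0362 after quantile normalization, 0.18 as TPM and 0.16 with voom, and -0.0111 to 0.12 with a line left out. The median of all genes was 0.07 in the fit, 0.17 as TPM, 0.17 with voom and -0.04 after quantile normalization. Members at least 2-fold higher numbered 0 in A549, 0 in CL1-0 and 1 in CL1-5 with a pseudocount of 1, and 5 in A549, 2 in CL1-0 and 2 in PC9 with 0.01. The cause of the other shifts was not tested. Of the list values 141 of 162, of the members' values within a line 102 of 126 and of the peak values 37 of 44 stayed within their limits. Over peaks with a q-value under 0.01, GBP5 had a promoter peak in 3 Mock and 3 DAC libraries, and the mean difference in members with a peak was 0.5. With 1 library per line and treatment, no value within a line has a replicate, and members with few reads carry wide counting intervals.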
